A study of Mus musculus with 31 samples.

Results

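The genes described here are 10 type I interferon stimulated genes, Ifit1, Ifit3, Mx1, Isg15, Oasl2, Usp18, Rsad2, Irf7, Ifi44 and Rtp4, which were picked by symbol from a table of 15648 genes. All 10 were in the table. They were measured by bulk RNA-seq of the left hippocampus of adult mice with the label genotype OT-I/Rag-/-. OT-I is a transgenic T cell receptor whose CD8+ T cells recognize an ovalbumin (OVA) peptide, and the loss of Rag1 leaves these mice, controls included, without other mature T cells or B cells. Mice of the rAAV-OVA group received rAAV-hSyn-OVA-mCherry in hippocampal area CA1, a vector in which the human synapsin promoter directs expression of OVA and the fluorescent protein mCherry to neurons. Mice of the rAAV-control group received rAAV-hSyn-mCherry, which lacks OVA. Hippocampi were taken 2, 5, 8 or 28 days later from 4 mice per vector and time point, except for 3 rAAV-control mice at 8 days, and each mouse gave 1 library.

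Type I interferons bind a receptor made of Ifnar1 and Ifnar2, and the kinases Jak1 and Tyk2 then activate the transcription factor ISGF3, which holds Stat2 and Irf9. ISGF3 binds interferon-stimulated response elements in the promoters of antiviral genes such as those described here. Type II interferon (interferon gamma), a cytokine of activated T cells and natural killer cells, uses its own receptor, and many genes respond to both kinds of interferon.

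RefSeq promoters of 300 bases, reaching from 250 bases before the start of transcription to 50 bases after it on the GRCm38.p6 assembly, were at hand for 7 of the 10 genes, those other than Mx1, Usp18 and Rtp4. The core of the response element, GAAA followed by any 2 bases and a second GAAA, was searched on both strands, and 4 of these 7 promoters held it, against 3.44% of all 32851 promoters. It was also in 17 of 45 promoters of further interferon-stimulated genes (37.8%) and in 5 of 14 promoters of genes of the type II interferon receptor and its targets (35.7%). The stretches with the matches are shown because they hold the letters of this core. They are written 5′ to 3′ on the strand of the gene, with the matches in capitals, and on this strand a match to the other strand reads TTTC, 2 bases and TTTC.
Ifit1, chr19:34640775-34640823, + strand: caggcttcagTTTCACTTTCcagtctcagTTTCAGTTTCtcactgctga
Ifit3, chr19:34583363-34583426, + strand: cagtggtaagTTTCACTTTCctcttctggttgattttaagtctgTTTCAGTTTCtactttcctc
Isg15, chr4:156200865-156200906, − strand: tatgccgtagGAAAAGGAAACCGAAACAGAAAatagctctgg
Rsad2, chr12:26456553-26456582, − strand: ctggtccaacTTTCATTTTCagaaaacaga
Ifit1 and Ifit3 each had 2 separate matches, Isg15 had 3 that overlap one another, and Rsad2 had 1. All began between 66 and 156 bases before the start of transcription. These letters were not in the promoters of Oasl2, Irf7 and Ifi44.

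The libraries held between 19046977 and 57407902 counts, with a median of 27024978. Levels are given as CPM, the counts of a gene scaled to 1000000 counts per library after TMM normalization, and values after ± are SD over mice. A gene was called when its FDR was at most 0.05 and its Log2FC was at least 0.66 in size. FDR values came from the quasi-likelihood test of edgeR and were adjusted over all 15648 genes by the Benjamini-Hochberg method. The 8 groups entered the model together with 2 surrogate variables, estimated with the groups in the model to hold other variation between mice. Their values were not free of the groups. At 28 days the first was 0.058 to 0.137 in rAAV-control mice and −0.224, −0.152, −0.117 and 0.131 in rAAV-OVA mice. The surrogate variables can thus take up part of a difference between vectors. All mice of 5 and 8 days were of batch 1, whereas each group of 2 and 28 days held 2 mice of batch 1 and 2 of batch 2. Of 10 listed T cell markers only Cd8a, Trbc2 and Lck were among the genes tested, and their summed level was 115 to 176 CPM in rAAV-OVA mice at 5 days, 181 to 589 CPM at 8 days and 35.8 CPM or more at 28 days. It was 1.51 to 7.17 CPM in the rAAV-OVA mice of 2 days and in the rAAV-control mice other than D720 of 8 days, which had 39.6 CPM. Of the hippocampal tissue itself, 8 neuron markers summed to between 2169 and 6576 CPM in each mouse. Among these markers the rAAV-OVA mouse D844 of 28 days stood apart from the other 30 mice, with the lowest Slc17a7 (213 CPM) and Fibcd1 (26.9 CPM), genes of excitatory neurons, and the highest Gad1 (692 CPM) and Gad2 (630.1 CPM), genes of inhibitory neurons. The vector of each mouse was taken from its label, and no value used here checks it, D720 included. In bulk tissue, more cells that use a gene and more RNA of it per cell cannot be told apart.

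At 5 days all 10 genes were higher in rAAV-OVA mice, and for each of them the lowest rAAV-OVA mouse exceeded the highest rAAV-control mouse. All 10 were called higher, against 9.63% of all genes, and groups without overlap in this direction were found for 21% of all genes. The Log2FC ran from 2.30 for Rsad2 to 3.74 for Isg15, with a median of 3.16 beside −0.01 over all genes. The surrogate variables lowered these values, which were 2.98 to 4.67 without them, with all 10 genes still called. Cell type markers moved with the members at 5 days, as the summed level was 1163 to 1187 CPM in rAAV-OVA and 553 to 861 CPM in rAAV-control mice for 9 microglia markers, and 360.2 to 519 CPM against 68.4 to 96.1 CPM for 8 monocyte markers. The neuron sum was lower in rAAV-OVA mice, 3844 to 4261 CPM against 5371 to 6576 CPM, as was that of 5 oligodendrocyte markers, 2679 to 3956 CPM against 4209 to 7264 CPM, while that of 6 astrocyte markers was higher, 3599 to 4731 CPM against 2201 to 3416 CPM. The part of these cell types in the difference was not tested.

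Irf7, the transcription factor that amplifies interferon production, had 119.6, 67.4, 112 and 108 CPM in the rAAV-OVA mice D725, D726, D786 and D787. In the rAAV-control mice D723, D724, D745 and D755 it had 2.82, 7.86, 3.15 and 4.57 CPM. The lowest rAAV-OVA mouse thus stood far above the highest rAAV-control mouse, and the Log2FC was 3.58 (SE 0.69, edgeR FDR 0.00049). Isg15 encodes a ubiquitin-like protein that is attached to other proteins. In the same order of mice it had 64.2, 26.5, 46.8 and 58.6 CPM after rAAV-OVA and 0.761, 3.73, 1.15 and 1.96 CPM after rAAV-control, a Log2FC of 3.74 (SE 0.72, edgeR FDR 0.00051). Usp18, the protease that removes this protein again and restrains the type I receptor, had 24.7 ± 6.41 CPM after rAAV-OVA and 1.76 ± 0.913 CPM after rAAV-control (n = 4 each, Log2FC 2.88, edgeR FDR 0.0021). For Irf7 and Isg15, as for the other 8 genes, D726 was the lowest of the 4 rAAV-OVA mice and D724 the highest of the 4 rAAV-control mice.

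Ifit1 encodes a protein that binds viral RNA and blocks its translation, Ifit3 belongs to the same gene family, and Oasl2 belongs to the oligoadenylate synthetase-like family. Ifit1 had 56.3, 27.7, 47.0 and 58.5 CPM after rAAV-OVA and 1.83, 6.47, 2.71 and 3.70 CPM after rAAV-control. Its Log2FC was 2.86 (SE 0.70, edgeR FDR 0.0039). Oasl2 had 195, 116, 203 and 201 CPM after rAAV-OVA and 3.89, 15.3, 4.56 and 7.23 CPM after rAAV-control, so that 3 rAAV-OVA mice lay close together and D726 below them. Its Log2FC was 3.66 (SE 0.68, edgeR FDR 0.00038). Ifit3 had 98.2 ± 21.9 CPM against 6.81 ± 3.68 CPM (n = 4 each, Log2FC 2.94, edgeR FDR 0.0017). Reads of Ifit3 have to be divided between it and the near-identical gene Ifit3b, so the level of either one alone is uncertain.

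Mx1, a dynamin-like GTPase that blocks viral replication, had 9.44 ± 3.61 CPM after rAAV-OVA and 0.425 ± 0.297 CPM after rAAV-control (n = 4 each, Log2FC 3.46, edgeR FDR 0.0034). It was the member with the fewest reads, and its 4 rAAV-control values at 5 days lay between 0.134 and 0.767 CPM. Rsad2, which encodes the antiviral enzyme viperin, had 19.7 ± 5.11 CPM against 2.5 ± 0.993 CPM (n = 4 each). Ifi44, an interferon-induced gene, had 23.2 ± 8.64 CPM against 1.26 ± 0.835 CPM, and Rtp4, which encodes a receptor transporter protein, 36.1 ± 7.28 CPM against 2.88 ± 1.10 CPM. Rtp4 had the lowest FDR of the members at 5 days, 0.00019, and Rsad2 the highest, 0.0066 (edgeR).

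**Figure D1:**
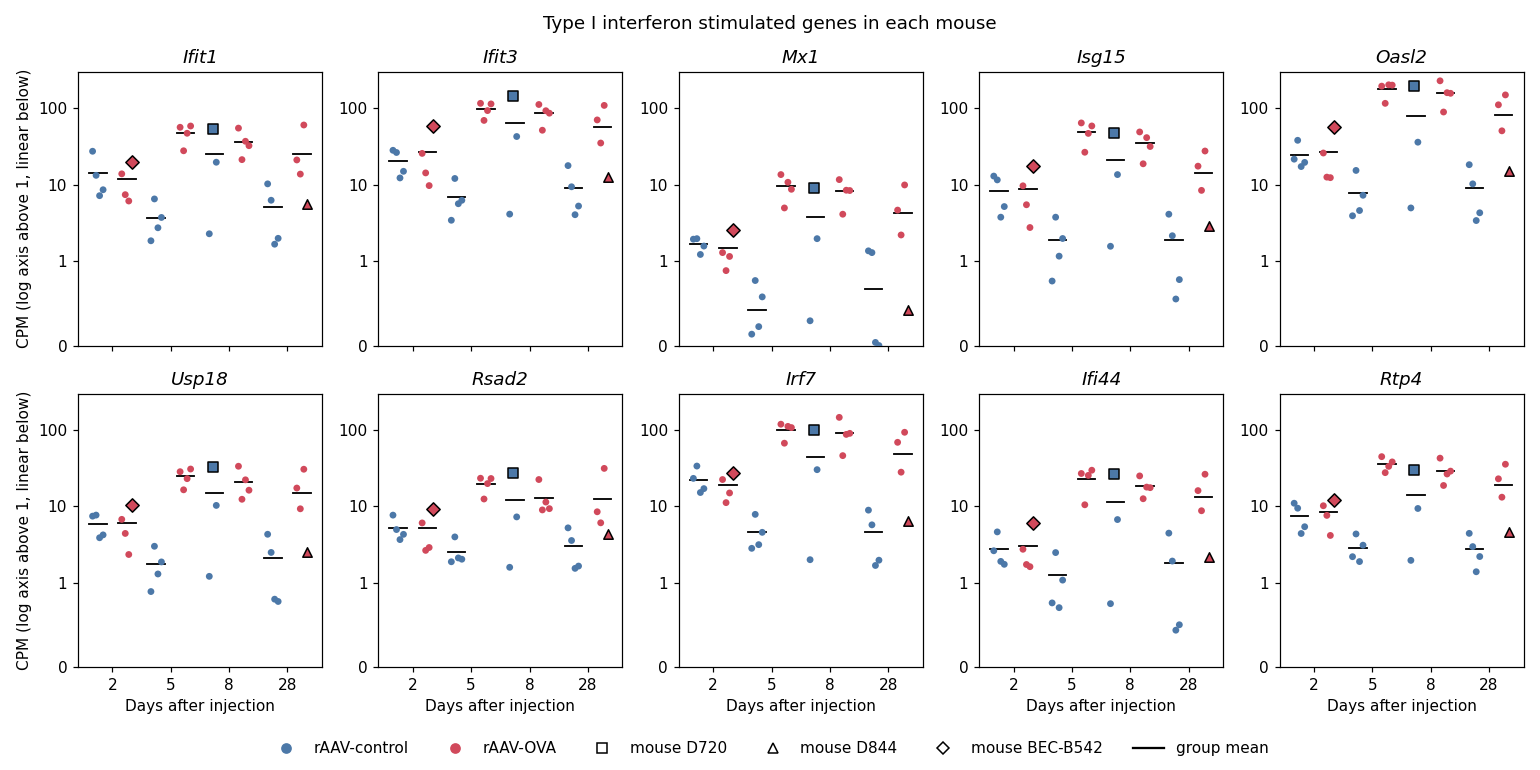
CPM of each gene (vertical axis, log scale above 1 and linear below) in every mouse, grouped by days after injection, with rAAV-control in blue on the left of each pair, rAAV-OVA in red on the right, and a line at the group mean. At 5 days all 4 rAAV-OVA mice lie above all 4 rAAV-control mice for each gene, whereas at 8 days the rAAV-control mouse D720 (square) lies among the rAAV-OVA mice.

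At 2 days none of the 10 genes was called, and 0 of 15648 genes were (percent called 0). The Log2FC ran from −0.32 for Ifit1 to 0.18 for Ifit3, with SE values of 0.43 to 0.74, and no member had an unadjusted p under 0.05, whereas 1416 of all genes had. Irf7 had 22.5, 11.2, 15 and 27.6 CPM in the rAAV-OVA mice D683, D684, BEC-B541 and BEC-B542. In the rAAV-control mice D740, D743, BEC-B544 and BEC-R385 it had 23.3, 33.8, 15.2 and 17.1 CPM. The groups overlapped for every member, while every rAAV-OVA mouse exceeded every rAAV-control mouse in 2.22% of all genes. Within batch 1 the Log2FC ran from −0.95 to −0.21 and within batch 2 from 0.38 to 1.29, and neither batch alone gave a called member.

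The sign of the Log2FC thus differed between the batches. The batch 2 mouse BEC-B542 was the highest of the 4 rAAV-OVA mice of 2 days for every member, with 57.7 CPM of Ifit3 against 9.68 to 25.6 CPM in the other 3, and 17.3 CPM of Isg15 against 2.73 to 9.62 CPM. This mouse was singled out after its values were seen. It also had 382 CPM of the guanylate-binding protein gene Gbp2, against 15.1 to 121 CPM in the other rAAV-OVA mice, and a T cell marker sum of 3.01 CPM. Of 17 genes of the type II receptor and its targets, 12 exceeded every rAAV-control mouse of 2 days. H2-Aa and H2-Eb1 lay within the other rAAV-OVA mice, and Ifngr1 was the lowest of all 31 mice. In BEC-B542 all 6 astrocyte markers lay below every rAAV-control mouse of 2 days, and all 8 neuron markers above their mean. The part of these cell types was not tested.

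The level at 2 days was not the lowest of the series. In rAAV-control mice the mean CPM of the members was 2.06 to 4.86 times as high at 2 days as at 5 days, and 11.7% to 29.6% of the rAAV-OVA mean at 5 days. Irf7 had the largest of these ratios, since its 4 rAAV-control mice of 2 days lay between 15.2 and 33.8 CPM and those of 5 days between 2.82 and 7.86 CPM. Its Log2FC was 2.36 (SE 0.63, edgeR FDR 0.051). No member was called in this comparison, in which 1.43% of all genes were called higher at 2 days, but 8 members had an unadjusted p under 0.05 and DESeq2 called 3 (3.43% of all genes). The summed level of 8 monocyte markers was 137 to 291 CPM in these mice at 2 days and 68.4 to 96.1 CPM at 5 days, and that of 8 neuron markers 4253 to 5240.1 CPM and 5371 to 6576 CPM. Their part in the difference was not tested. Against rAAV-control mice of 28 days the Log2FC of 2 days ran from 0.13 for Ifi44 to 1.83 for Irf7, and no member was called (2.79% of all genes were called in either direction, and 2 members had an unadjusted p under 0.05). At 28 days monocyte sums were 78.7 to 93.6 CPM. Microglia sums were 691 to 849.5 CPM at 2 days and 430.3 to 486 CPM at 28 days, astrocyte sums 2778 to 5592 and 1693 to 2069 CPM. Neuron, oligodendrocyte and endothelial sums overlapped. The part of these cell types was not tested.

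At 8 days the rAAV-OVA mice stayed high, but the comparison with rAAV-control mice gave no called member, whereas 9.32% of all genes were called higher. The Log2FC ran from 0.43 for Rsad2 to 1.77 for Oasl2 (edgeR FDR 0.058 to 0.64), and 4 members had an unadjusted p under 0.05. The groups overlapped for all 10, whereas 14.4% of all genes had every rAAV-OVA mouse on top. Irf7 had 147, 46.3, 87.9 and 90.7 CPM in the rAAV-OVA mice D700, D701, D702 and D703. In the 3 rAAV-control mice it had 2.00 CPM in D696, 30.3 CPM in D722 and 101 CPM in D720. The other 2 rAAV-control mice lay below all rAAV-OVA mice, and D720 lay above 3 of the 4 rAAV-OVA mice.

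The same order of the rAAV-control mice, D696 lowest, D722 between and D720 highest, held for each of the 10 genes. Isg15 had 1.55, 13.5 and 47.4 CPM in D696, D722 and D720, beside 18.7 to 48.9 CPM in rAAV-OVA mice. Ifit3 had 4.09, 42.6 and 144 CPM, beside 51.5 to 112 CPM, and the value of D720 was the highest of all 31 mice. Oasl2 had 4.93, 35.9 and 194 CPM, beside 89.3 to 229 CPM. D722 lay below every rAAV-OVA mouse for all 10 genes, at 22.6% to 55.8% of the rAAV-OVA mean.

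In D720 all 10 genes exceeded the mean of the 4 rAAV-OVA mice of 8 days, at 104% for Rtp4 to 208% for Rsad2 with a median of 140%, and for Ifit3, Rsad2 and Ifi44 D720 exceeded each of them. The raised level of the members in this mouse was known when they were chosen, so the values of other interferon lists are set beside it as a description only. Of 41 further interferon-stimulated genes 12 exceeded the rAAV-OVA mean, with a median of 82.8%, and of 13 nucleic acid sensors 5 did, with a median of 82.7%. Of the type I receptor, its kinases and ISGF3, Tyk2 lay at 55.3% of it, Ifnar1 at 74.6%, Ifnar2 at 75.8%, Stat2 at 82.8%, Jak1 at 83.9% and Irf9 at 98.5%. Of 17 genes of the type II receptor and its targets, 0 exceeded the rAAV-OVA mean and 13 lay below every rAAV-OVA mouse, with a median of 51.7% and a range of 12% for Nos2 to 95.1% for Ifngr2. Ciita, the master activator of MHC class II genes, had 12.1 CPM in D720, 0.877 and 1.19 CPM in the other rAAV-control mice and 30.6 to 69.1 CPM in rAAV-OVA mice. Cxcl9, a chemokine that attracts T cells, had 72.7 CPM, beside 3.05 and 4.85 CPM and 124 to 281 CPM.

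T cell markers were lower still in D720 relative to rAAV-OVA mice. Cd8a had 9.73 CPM in D720, 1.09 CPM in D696 and 0.517 CPM in D722, against 52.0 to 163 CPM in rAAV-OVA mice. The 3 T cell markers stood at 9.11% to 14.5% of the rAAV-OVA mean, and 8 monocyte markers at a median of 35.2%. The summed level of 9 microglia markers was 1348 CPM in D720, 455 and 641 CPM in the other rAAV-control mice and 1067 to 1533 CPM in rAAV-OVA mice. The sum of 5 choroid plexus markers was 1399.7 CPM in D720 and at most 74.7 CPM in the other 6 mice of 8 days, while it reached 5233 CPM in D845 of 28 days. The library of D720 held 22980441 counts. All 5 oligodendrocyte markers were higher in D720 than in each rAAV-OVA mouse of 8 days, with a median of 173% of their mean, and 6 astrocyte markers summed to 4607 CPM in D720 and to 1899.9 and 2410 CPM in the other rAAV-control mice. The neuron sum was 4564 CPM in D720, 6042 and 6100.4 CPM in the other rAAV-control mice and 3544 to 4507 CPM in rAAV-OVA mice. The part of these cell types in the raised level was not tested, and D720 was of batch 1 like the other mice of 8 days.

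**Figure D2:**
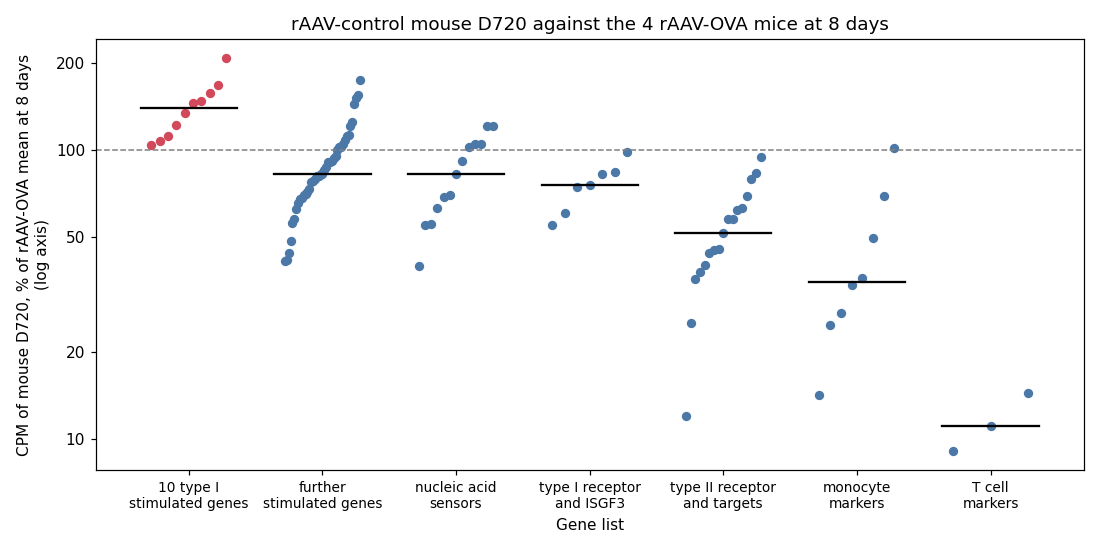
CPM of each gene in rAAV-control mouse D720 at 8 days as a percentage of the 4-mouse mean of rAAV-OVA at 8 days (vertical axis, log scale), by gene list, with 1 point per gene and a line at the list's median. The 10 type I interferon stimulated genes lie at or above 104%, a level known when they were chosen, the type II genes at a median of 51.7% and the T cell markers at 9.11% to 14.5%.

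D720 was singled out for its raised level of these genes, and that choice fixed the direction of the change when it was left out. Without D720 the Log2FC at 8 days was between 1.31 and 2.83, and without D696, the lowest rAAV-control mouse, between −0.41 and 0.69 with no member called. In the same model 3 members were called without D720, Oasl2 (2.83, SE 0.77, edgeR FDR 0.014), Rtp4 (2.01, SE 0.56, FDR 0.016) and Irf7 (2.30, SE 0.78, FDR 0.046), against 9.84% of all genes called higher. The remaining 7 had FDR values of 0.064 to 0.22, with 2 rAAV-control mice left, D696 and D722. All 4 rAAV-OVA mice exceeded both of these for all 10 genes, as they did for 24.8% of all genes. With DESeq2 and all 3 rAAV-control mice, 2 members were called, Oasl2 (FDR 0.041) and Rtp4 (FDR 0.023), against 9.84% of all genes.

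**Figure D3:**
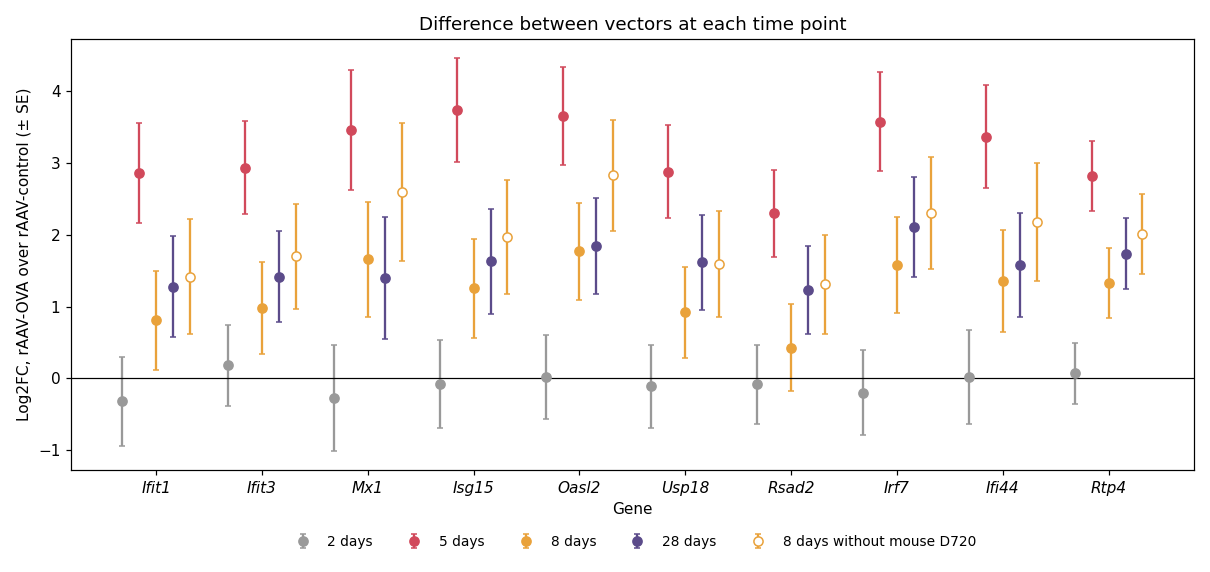
Log2FC of rAAV-OVA over rAAV-control mice for each gene (vertical axis) at 2, 5, 8 and 28 days, with error bars of 1 SE from the edgeR model, and open circles for 8 days without mouse D720. The values are near 0 at 2 days, 2.30 to 3.74 at 5 days, 0.43 to 1.77 at 8 days and 1.31 to 2.83 there without D720.

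At 28 days the members lay above rAAV-control on average but spread widely among rAAV-OVA mice. Cell type markers moved with the vector at 28 days as well, with sums of 572 to 1623 CPM in rAAV-OVA and 430.3 to 486 CPM in rAAV-control mice for microglia, 194 to 314 against 139 to 167 CPM for endothelial cells, 2365 to 4982 against 1693 to 2069 CPM for astrocytes, and 2169 to 4536 against 5117 to 6001 CPM for neurons. The part of these cell types was not tested. In all, 3 were called higher, against 12.8% of all genes: Irf7 (Log2FC 2.11, SE 0.70, edgeR FDR 0.023), Oasl2 (1.85, SE 0.67, FDR 0.037) and Rtp4 (1.74, SE 0.50, FDR 0.010). The Log2FC of the other 7 ran from 1.23 for Rsad2 to 1.63 for Isg15, with FDR values of 0.063 to 0.21. Irf7 had 69.2 and 28.1 CPM in the batch 1 rAAV-OVA mice D661 and D667 and 93.7 and 6.41 CPM in the batch 2 mice D845 and D844. It had 1.68 and 1.97 CPM in the batch 1 rAAV-control mice D705 and D706 and 8.93 and 5.73 CPM in the batch 2 mice D843 and D851. D844 lay between the 2 batch 2 rAAV-control mice, and D845 near the level of 5 days.

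D844 was the lowest rAAV-OVA mouse of 28 days for every member, at 7.45% for Mx1 to 28.5% for Rsad2 of the mean of the other 3. Rtp4 was the only member whose groups did not overlap at 28 days (15% of all genes, with rAAV-OVA on top), by 4.62 CPM in D844 against 4.43 CPM in D843. D844 also had the lowest T cell marker sum of the 4, 35.8 CPM against at least 309.5 CPM in the other 3, and Cd8a was 6.28 CPM in D844 and 79.1 to 171 CPM in the others. Its Slc17a7 level was 16.3% and its Gad2 level 366% of the rAAV-control mean of 28 days, and their part in the low level was not tested. Rsad2 had 31.5 CPM in D845 and 4.38 to 8.50 CPM in the other 3, and Ifit1 60.3 CPM in D845 and 5.55 to 21 CPM in the others.

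Within batch 1, where the groups did not overlap, all 10 members were called at 28 days, against 6.68% of all genes called higher. The Log2FC there ran from 2.24 for Rsad2 to 4.78 for Irf7 without Mx1, for which D705 and D706 had 1 and 0 counts. Within batch 2 it ran from 1.96 to 2.76 with FDR values of 0.38 to 0.52, and 0 of 15648 genes were called. The count depended on the surrogate variables, since 10 members were called without them, against 15.8% of all genes called higher, and 10 with the batch label in their place (15.5% of all genes). After group means were subtracted, the mean log2 CPM of the members had a Pearson correlation of −0.435 with the first surrogate variable and 0.297 with the second over the 31 mice. Without D844, 2 members were called in the same model, Irf7 and Rtp4, against 12.5% of all genes. Without D720, a mouse of 8 days that shares the surrogate variables, 8 members were called at 28 days, against 13.7% of all genes.

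Tests of whether the difference between vectors changed with time gave no called member. From 5 to 8 days the Log2FC fell by 1.50 to 2.48 in all 10 members, with FDR values of 0.57 to 0.79 and an unadjusted p under 0.05 in 6, and 0.179% of all genes were called. From 5 to 28 days it fell by 1.06 to 2.11, with FDR values of 0.15 to 0.40 and an unadjusted p under 0.05 in 2 (6.13% of all genes were called). Between 8 and 28 days it moved by −0.26 to 0.80, with no unadjusted p under 0.05 (0% of all genes). Without surrogate variables the Log2FC fell by 2.56 to 3.92 from 5 to 8 days and moved by 1.55 to 2.35 from 8 to 28 days, with FDR values of 0.20 to 0.42 and of 0.36 to 0.64 and no member called. Without D720 and with surrogate variables the change was −1.95 to −0.98 from 5 to 8 days and −0.88 to 0.30 from 8 to 28 days.

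Within rAAV-OVA mice, the mean CPM at 8 days was 66.1% of that at 5 days for Rsad2 to 91.4% for Irf7, and at 28 days 28.6% for Isg15 to 64.0% for Rsad2. None of these changes was called. The fitted values did not follow these means throughout, since at 8 against 5 days the Log2FC ran from −0.24 to 0.36 (2.1% of all genes called in either direction, no member with an unadjusted p under 0.05), and from −0.59 to −0.13 without surrogate variables. At 28 against 5 days it ran from −1.55 for Isg15 (edgeR FDR 0.070) to −0.35 for Rsad2 (11.2% of all genes, 1 member with an unadjusted p under 0.05). Monocyte marker sums were 92.4 to 285 CPM at 28 days and 360.2 to 519 CPM at 5 days. Endothelial sums were 194 to 314 and 127 to 181 CPM, oligodendrocyte sums 4731 to 7971 and 2679 to 3956 CPM. Microglia, astrocyte and neuron sums overlapped, and the part of these cell types was not tested. At 5 against 2 days the rAAV-OVA mice had Log2FC values of 1.13 to 2.07, and Ifi44 (2.07, edgeR FDR 0.045) and Rtp4 (1.38, FDR 0.048) were called higher, against 6.6% of all genes. Without surrogate variables 9 members were called there (10.1% of all genes), and 0 to 3 when single mice were left out. Several marker sums of the rAAV-OVA mice of 5 and 2 days did not overlap. They were 1163 to 1187 CPM at 5 days and 623 to 720.1 CPM at 2 days for microglia, and 360.2 to 519 and 86.9 to 171 CPM for monocytes. For neurons they were 3844 to 4261 and 4474 to 5747 CPM, for astrocytes 3599 to 4731 and 2489 to 2983 CPM. Oligodendrocyte sums were 2679 to 3956 and 4333 to 8798 CPM. Those of endothelial cells and the choroid plexus overlapped. The part of these cell types was not tested.

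The order of the 8 groups by median CPM was nearly the same for every member. rAAV-OVA mice of 5 days came first and those of 8 days second for all 10 genes, the rAAV-control mice of 8 days and the rAAV-OVA mice of 28 days took the next 2 places, both groups of 2 days followed, and the rAAV-control mice of 5 and 28 days came last. Neighbours in this order overlapped in 7 of 7 places for 8 genes and in 6 of 7 for Irf7 and Rtp4, so that the order does not separate neighbouring groups.

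The members moved together from mouse to mouse. Over the 31 mice, the Pearson correlation of log2 CPM between 2 members was 0.928 (Mx1 with Rsad2) to 0.991 in the 45 pairs, with a median of 0.972. After group means were subtracted it was 0.854 (Mx1 with Rtp4) to 0.984. The pairs share their libraries and scaling factors, and these values are a description. Of all other genes, Phf11d, Oas1a, Ifit3b, Oasl1 and Gbp3 were the most like the mean log2 CPM of the members, with Pearson correlations of 0.992, 0.992, 0.983, 0.983 and 0.983 over the 31 mice and of 0.967 to 0.988 after group means were subtracted.

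The members' level and the T cell markers were set side by side in each mouse. The mean log2 CPM of the members was 4.31 to 5.66 in the 8 rAAV-OVA mice of 5 and 8 days, all of which had a T cell marker sum of at least 115 CPM. D720 had a mean of 5.54, the fourth highest of the 31 mice, with a T cell marker sum of 39.6 CPM. D844, the mouse with the lowest Slc17a7 and the highest Gad1 of all 31, had a mean of 2.02 with a sum of 35.8 CPM. D722 had a mean of 3.69 with 4.14 CPM and BEC-B542 of 3.92 with 3.01 CPM. Among the other mice with sums of at most 7.17 CPM, D743 had 3.41, D740 3.40 and D683 3.16, whereas D696 had 0.77 with 4.97 CPM.

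**Figure D4:**
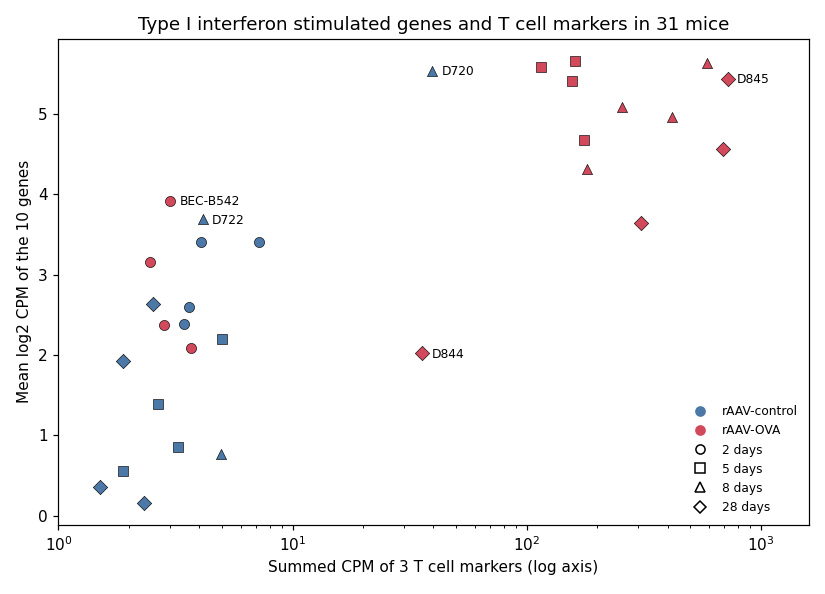
Mean log2 CPM of the 10 genes (vertical axis) against the summed CPM of Cd8a, Trbc2 and Lck (horizontal axis, log scale) in the 31 mice, with colour for the vector and shape for the day. D720 and D844 have similar T cell marker sums, 39.6 and 35.8 CPM, and means of 5.54 and 2.02, and D844 also stood apart in its neuron markers.

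The rest of the pathway was read from lists fixed for this work. Of 14 interferon genes, Ifnb1, Ifng and 12 others, none was among the 15648 genes, since a gene had to reach 15 counts in 15 or more mice to be kept, so the ligands were not analysed here. Genes of the type I receptor and of ISGF3 were read at 5, 8 and 28 days. The receptor chain Ifnar1 stayed below the limit of 0.66 (Log2FC 0.36, 0.55 and 0.48 in order of time), with FDR values of 0.0087 to 0.043 (edgeR). The other chain, Ifnar2, was called at all 3 times (0.74, 0.85 and 1.02). Of the kinases, Tyk2 (0.62, 1.04 and 0.28) was called at 8 days and Jak1 (0.27, 0.19 and 0.09) at none of them. Stat2 (1.98, 1.30 and 0.57) was called at 5 and 8 days and Irf9 (2.00, 1.15 and 1.38) at all 3 times, and for these the groups overlapped at 8 days. These calls depended on the fit. Without surrogate variables 2 of the 7 genes of this list were called at 8 days (7.58% of all genes called higher) and 4 at 28 days (15.8%). Without D844, 6 were called at 28 days (12.5%).

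Of 13 nucleic acid sensors and adaptors, all in the table, 9, 7 and 8 were called higher at 5, 8 and 28 days. The share of all genes called higher was 9.63%, 9.32% and 12.8%. Zbp1, a sensor of Z-form nucleic acids, had 69.1 ± 13.5 CPM against 0.991 ± 0.675 CPM at 5 days (n = 4 each, Log2FC 5.07, edgeR FDR 6.3e-05). The RNA sensors Rigi, Ifih1 and Dhx58 had Log2FC values of 1.74, 2.00 and 2.63, and all 3 were called. The adaptor Sting1 was called each time (1.91, 1.99 and 2.12). The kinase Tbk1 and the transcription factor Irf3, which act directly below the sensors, were called at none of these times, with Log2FC values of 0.25 and 0.26 at 5 days, of which Tbk1 had an FDR of 0.018 with a change below the limit.

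A list of 41 further interferon-stimulated genes had 37, 25 and 29 genes called higher at these times, with medians of 2.46, 1.51 and 1.59. For this and the other lists of this paragraph, 9.63%, 9.32% and 12.8% of all genes were called higher. The largest Log2FC at 5 days were those of Oas3 (4.78), Oasl1 (4.02) and Oas1g (3.96), members of the oligoadenylate synthetase family, and the smallest those of Cmpk2 (0.63), Daxx (0.59) and Adar (0.37). The 10 members had 10, 0 and 3 called, with medians of 3.16, 1.29 and 1.60. Of the type II receptor and its targets, 15, 16 and 16 of 17 genes were called higher, with medians of 4.61, 2.90 and 2.39. Ifih1 stands in both the sensor list and the list of further genes.

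Among the type II genes, Ciita had Log2FC values of 5.39, 4.11 and 4.51 in order of time, and Cd74, the invariant chain of MHC class II, of 5.10, 3.26 and 5.09, and edgeR called each of these. The GTPase genes Igtp (4.66, 2.81 and 2.73) and Irgm1 (3.67, 2.31 and 2.14) were called at the 3 times as well. At 8 days D720 lay above the lowest rAAV-OVA mouse for Igtp (266 against 253 CPM), Irgm1 (264 against 209 CPM), Gbp3 (89.3 against 83.4 CPM) and Ifngr2 (67.9 against 66.0 CPM), and below it for the other 13 type II genes. Without surrogate variables the counts called at 8 days were 6 of 17 type II genes, 5 of 41 further genes and 2 of 13 sensors, and the members still had 0, with 7.58% of all genes called higher. Without D720 they were 16, 32 and 9, with 3 members and 9.84% of all genes called higher. Leaving out 1 mouse at a time gave 8 (without D722) to 61 genes called over all pathway lists, with 2.62% to 9.84% of all genes.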

How the data were processed

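RNA of the left hippocampus of 31 mice was made into TruSeq libraries of mRNA and sequenced as read pairs. After trimming with fastp, the authors quantified GENCODE M29 transcripts with Salmon 1.8.0 and its GC correction. They deposited estimated counts per gene as whole numbers, without normalization, for genes that reached 15 counts in 15 or more mice. Mice were grouped by the labels for vector and time point, and batch was taken from the labels. The quasi-likelihood test of edgeR 4.0.16 (R 4.3.3) was used, with TMM scaling, robust dispersions, 8 groups and 2 surrogate variables from sva 3.50.0. SE values were derived from the F statistic. Totals of 19046977 to 57407902 counts per mouse limit the precision of low genes such as Mx1, and the models hold counting error and the spread between mice together. The fit was tested on simulated data. Alternatives were DESeq2 1.42.0 and its size factors, ashr 2.2.63, other covariates, a count filter and leaving out mice.

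The 10 genes and all lists were chosen with earlier results of these data known. Named beside the 10 genes were genes of the receptor, sensor and type II lists, the 3 largest and 3 smallest changes of the further list at 5 days, the 5 genes most like the members, and markers. Promoters come from RefSeq on GRCm38.p6, an older assembly than that of the counts, so the coordinates belong to these promoters only. One gene of the pathway lists is not reported here.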

Additional observations from a re-analysis of the deposited data

Results flagged for a closer look

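Of 70 tests of a member in a group of 4 mice, 3 found a mouse apart from the other 3 by Dixon's criterion at the 95% level, where chance gives about 1 in 20 (groups of 3 were not tested, so D720 was not covered). Oasl2 in rAAV-OVA mice of 5 days was low in D726, at 116 CPM against 195 to 203 CPM. Rsad2 in rAAV-control mice of 5 days was high in D724, at 3.98 CPM against 1.88 to 2.11 CPM. Rsad2 in rAAV-OVA mice of 28 days was high in D845, at 31.5 CPM against 4.38 to 8.50 CPM. No member was called in the tests of a change in the difference between vectors.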

How the results depend on the processing

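Percentages are the share of all genes called higher in the same fit. At 5 days all 10 members were called in every alternative run except the filter (at least 15 counts in every mouse), under which the 8 members it kept were called. At 8 days the count of 0 became 2 with DESeq2 (9.84%), also with ashr (7.56%), and 3 without D720 (9.84%), also without surrogate variables (11.2%, an alternative chosen after seeing the data). Leaving out 1 mouse gave 0 to 3 (2.62% to 9.84%). At 28 days the count of 3 became 10 without surrogate variables (15.8%), with the batch label (15.5%), in batch 1 alone (6.68%) and without D844 and surrogate variables (17.8%, chosen after seeing the data), 8 with the filter, which kept 8 members (12%), 5 with the mice of that day alone (10.9%) and 0 in batch 2 alone (0%). Leaving out 1 mouse gave 1 (without D661, D851 or D706) to 8 (without D843), and 5 without D705 (10.4% to 14.2%). At 5 against 2 days in rAAV-OVA mice the count of 2 became 9 without surrogate variables (10.1%), 10 with the batch label (10%), 4 with the filter (7%) and 0 to 3 without 1 mouse (3.55% to 7.79%). It was 0 without any 1 of D725, D726, D786, D787, D684 and BEC-B541. At 28 against 5 days it was 0 to 1 (without D726). In rAAV-control mice at 2 against 5 days the count of 0 became 1 with DESeq2 size factors (1.72%), 3 with DESeq2 (3.43%), also with ashr (2.86%), and 0 to 1 without 1 mouse (1 without D755, 0.0128% to 2.91%). The 52 genes called over the pathway lists at 8 days (9.32%) became 15 without surrogate variables (7.58%) and 16 with the batch label (7.89%). They became 33 with the filter (5.78%) and 0 with the mice of that day alone (0%). Without 1 mouse there were 8 (without D722) to 61, with 28 without D701 and 22 without D696 (2.62% to 9.84%). At 28 days 55 (12.8%) became 0 in batch 2 alone (0%). The cause of these moves was not tested.

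Values near 0 changed sign. At 2 days Isg15 went from −0.08 to 0.09 without surrogate variables, 0.03 with the batch label and 0.10 with the filter, Usp18 from −0.11 to 0.05, 0.00 and 0.10, and Rsad2 from −0.08 to 0.02 without surrogate variables and with the filter. Without 1 mouse the Log2FC at 2 days ran from −0.66 to 0.51 for Ifit1, −0.18 to 0.71 for Ifit3, −0.51 to 0.20 for Mx1, −0.56 to 0.58 for Isg15, −0.45 to 0.34 for Oasl2, −0.53 to 0.29 for Usp18, −0.45 to 0.48 for Rsad2, −0.63 to 0.15 for Irf7, −0.32 to 0.37 for Ifi44 and −0.29 to 0.52 for Rtp4. At 8 days it ran from −0.14 to 1.42 for Ifit1, −0.06 to 1.70 for Ifit3, −0.08 to 1.60 for Usp18 and −0.41 to 1.31 for Rsad2. No paired analysis was possible because no replicate name is shared between groups. Groups held 3 or 4 mice, and Mx1, the member with the fewest reads, had the largest SE of the 10 at each time.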
